A study of Mus musculus with 6 samples.

Results

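Homeobox genes of regional identity encode transcription factors that share a DNA-binding homeodomain and mark out territories of the embryo, the neural tube and its neurons. They were taken by symbol, as every row of the authors' deposited table of all genes whose symbol begins with Hox (clusters a to d), Dlx, Lhx, Pax, Irx, Nkx, Emx, Otx, Gbx, Meis, Pbx or Pou followed by a digit, and likewise the sine oculis genes such as Six2, Six5 and Six6. This gave 79 rows of 74 genes, out of 20414 rows and 18746 genes in all. The rule goes by symbol alone, so not every member encodes a homeodomain protein. Noncoding transcripts such as Dlx6as1, Emx2os and Otx2os1 are counted too. The samples were left and right entorhinal cortex (EC), the gateway between neocortex and hippocampus, dissected from untreated C57BL/6 wild-type mice of 6 months, with 3 Affymetrix Mouse Gene 2.0 ST arrays per side. The labels call the arrays of a side biological replicates and do not say whether the sides were sampled from the same mice. The table with gene symbols holds a signed fold and a p-value per row, left versus right, so no level, replicate mean or SD can be set beside a named gene here. For the same reason the labelled tissue could not be checked against the levels of its defining markers.

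As background, the vertebrate telencephalon is divided early into the pallium, which forms the cortex and its glutamatergic neurons, and the subpallium, which forms the striatum and the GABAergic interneurons that migrate into the cortex. Emx1, Emx2, Lhx2, Pax6 and several POU genes pattern the pallium, whereas Dlx genes, Nkx2-1, Lhx6 and Lhx8 specify subpallial neurons. Hox genes lie in clusters whose order on the chromosome follows their order of use along the body, from hindbrain to tail, and Polycomb proteins hold them silent in the forebrain. Meis and Pbx proteins, of the TALE class of homeodomains, bind DNA together with Hox and other homeodomain partners.

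The members fell into groups that leaned to different sides. All 8 rows of the 7 telencephalic subpallial genes were higher on the right per the authors' deposited table, 17 of the 20 Hox rows were higher on the left, and the 8 pallial rows were divided evenly. The median log2 fold, left over right, was -0.13 for the telencephalic subpallial rows, 0.08 for the Hox rows and 0.00 for the pallial rows in the authors' deposited table, where the median of all rows was 0.01. The subpallial group as a whole, with Dlx and Nkx2 genes known from other organs, had 9 of 14 rows on the right and a median of -0.04 in the authors' deposited table. These differences were small, since the 5th and 95th percentiles of all rows lay at -0.16 and 0.16 on the same scale. In all, 54.1% of rows in the authors' deposited table had the higher value on the left and 45.9% on the right. Of the 79 member rows 49 (62.0%) lay on the left and 30 (38.0%) on the right.

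A deposited p under 0.05 was found for 10 member rows (12.7%) in the authors' deposited table, against 8.13% of all rows. Of these, 9 were higher on the right (11.4% of members, against 4.33% of all rows) and 1 on the left (1.27%, against 3.81%), as counted in the authors' deposited table. Part of the 10 were antisense and opposite-strand transcripts, and without such transcripts 5 of 72 member rows had a deposited p under 0.05. After Benjamini-Hochberg adjustment over all 20414 rows no member passed 0.05, the smallest adjusted p being 0.567, and 0.0% of all rows passed. Every p printed here without further comment is the authors' deposited one, and the sources used here do not name its test. Positive folds were taken to mean more signal on the left, likely but not certain, since the line heading the authors' deposited table reads left versus right. The per-array values, whose rows carry no gene names, also had their largest differences on the right, with 9 rows of above-median signal over 1 on the log2 scale on the right and 0 on the left. Of those unnamed rows 7.31% had an unadjusted limma p under 0.05.

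**Figure D1:**
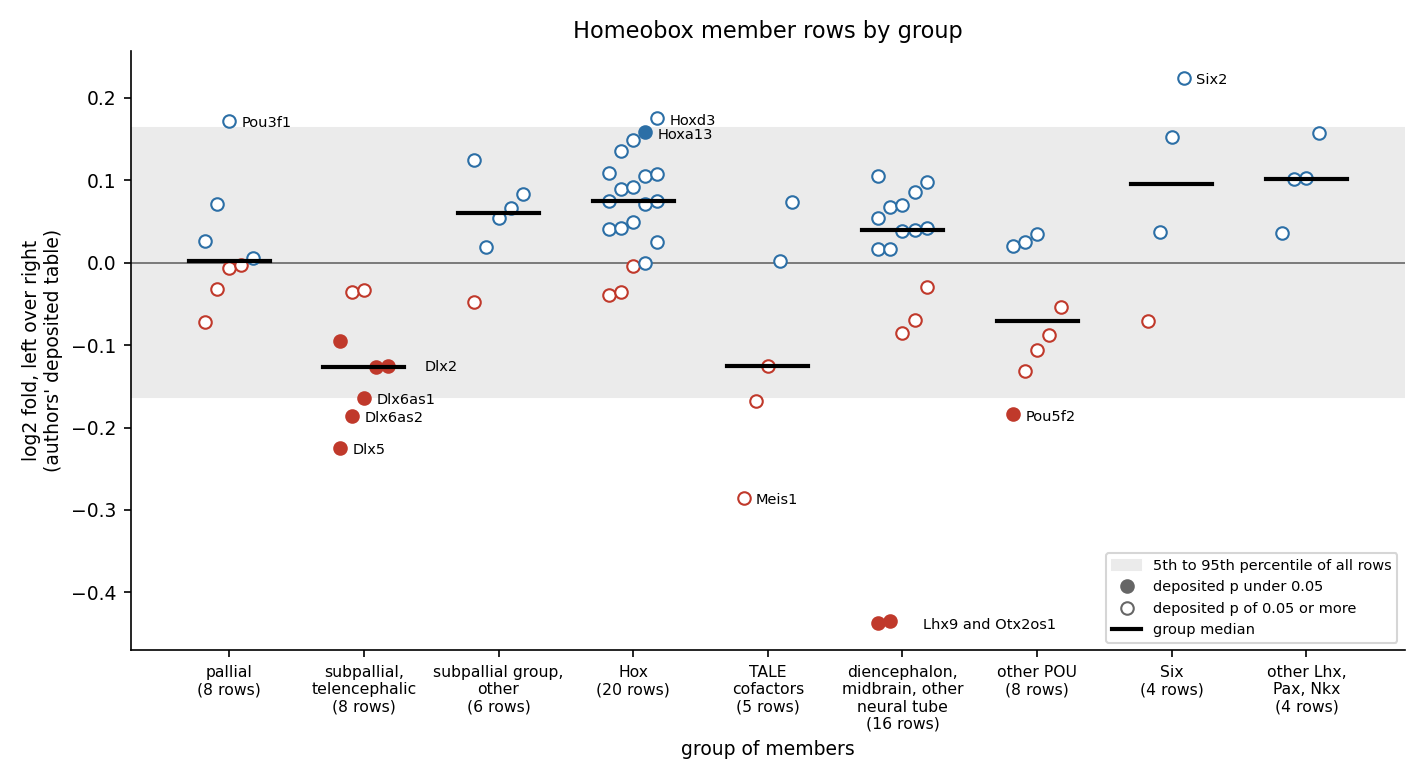
Each point is a member row of the authors' deposited table, placed by group (horizontal axis) and by its log2 fold, left over right (vertical axis); blue points are higher on the left, red on the right, filled points have a deposited p under 0.05, bars are group medians and the grey band spans the 5th to 95th percentile of all rows (-0.16 to 0.16). The 8 telencephalic subpallial rows all lie below 0, the Hox median is 0.08, and Lhx9 and Otx2os1 lie farthest down at -0.44.

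The subpallial genes were led by the Dlx genes, which act in progenitors and young neurons of the ganglionic eminences and lie in pairs that share enhancers. Dlx5 (Entrez gene 13395) had the smallest deposited p of any member and was 1.17-fold higher on the right (p = 0.00389, adjusted over all rows p = 0.567) in the authors' deposited table. Only 2.32% of all rows of the authors' deposited table were at least as far to the right as Dlx5. Dlx2 (Entrez gene 13392), which acts with Dlx1 in the production of interneurons, was 1.09-fold higher on the right (p = 0.0275) in the authors' deposited table.

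Long noncoding transcripts of the same loci lay on the same side. Dlx6as1 (Entrez gene 320038), also known as Evf2 and transcribed from the Dlx5 and Dlx6 locus, was 1.12-fold higher on the right (p = 0.0498) in the authors' deposited table. Dlx6as2 (Entrez gene 13397), a shorter transcript of that locus, was 1.14-fold higher on the right (p = 0.0281) in the authors' deposited table. Dlx1as (Entrez gene 111970), the antisense partner of Dlx1, had a pair of rows, at 1.09-fold and 1.07-fold in favour of the right (p = 0.0288 and 0.0438), in the authors' deposited table. Thus all 6 rows of the Dlx1/2 and Dlx5/6 loci had a deposited p under 0.05 to the right per the authors' deposited table, where 4.33% of all rows did. The 6 rows come from 5 genes at only 2 loci, so they are not independent of each other, and Dlx6as1 and Dlx6as2 overlap in the RefSeq annotation. Dlx1 and Dlx6 themselves were not analysed here.

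The remaining telencephalic subpallial genes differed less. Lhx6, which acts below Nkx2-1 in interneurons born in the medial ganglionic eminence, was 1.02-fold higher on the right (p = 0.496) in the authors' deposited table. Nkx2-1, which specifies that eminence, was 1.02-fold higher on the right (p = 0.525) in the authors' deposited table. Lhx8, a gene of cholinergic forebrain neurons, was not analysed here.

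Dlx and Nkx2 genes known mainly outside the telencephalon did not share the lean. Of their 6 rows 5 were higher on the left per the authors' deposited table, the median log2 fold being 0.06 and the range -0.05 to 0.13. Dlx3, a gene of skin, teeth and placenta, was 1.05-fold higher on the left (p = 0.186) in the authors' deposited table. Nkx2-5, a heart gene, was 1.06-fold higher on the left (p = 0.213), Nkx2-3, a gene of gut and spleen, 1.04-fold (p = 0.31), and Nkx2-9, a gene of the ventral neural tube, 1.09-fold (p = 0.183) in the authors' deposited table. The 2 rows of Nkx2-2, which acts in the ventral neural tube and in oligodendrocyte precursors, lay on opposite sides, 1.03-fold higher on the right and 1.01-fold higher on the left (p = 0.541 and 0.703), per the authors' deposited table.

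The 300-base promoters of Dlx2, Dlx6as1 and Dlx6as2, which lay together on the right, are shown with that of Hoxa13, the Hox gene with the smallest deposited p on the left. They are RefSeq sequences of build GRCm38.p6, minus strand in each case, and capitals mark TAATTA, a palindrome that many homeodomain proteins bind, so that a match on either strand reads the same. The first is chr2:71546705-71547004, the next pair of sequences are the starts of Dlx6as1 (Dlx6os1 in RefSeq) at chr6:6869484-6869783 and chr6:6861634-6861933, then Dlx6as2 (Dlx6os2 in RefSeq) at chr6:6865101-6865400 and Hoxa13 at chr6:52260831-52261130.
Dlx2: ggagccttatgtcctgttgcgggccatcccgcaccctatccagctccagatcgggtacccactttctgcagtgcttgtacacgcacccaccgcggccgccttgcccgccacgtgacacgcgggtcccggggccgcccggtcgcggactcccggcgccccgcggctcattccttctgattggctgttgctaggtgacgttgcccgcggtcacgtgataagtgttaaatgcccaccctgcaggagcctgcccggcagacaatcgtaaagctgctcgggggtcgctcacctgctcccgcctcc
Dlx6as1, start at the higher coordinate: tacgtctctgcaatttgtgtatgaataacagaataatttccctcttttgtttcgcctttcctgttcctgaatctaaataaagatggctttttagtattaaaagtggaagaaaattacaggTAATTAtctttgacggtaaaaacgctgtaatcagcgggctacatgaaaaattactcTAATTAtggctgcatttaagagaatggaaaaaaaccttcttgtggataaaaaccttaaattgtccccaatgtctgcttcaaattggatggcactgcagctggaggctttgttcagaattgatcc
Dlx6as1, start at the lower coordinate: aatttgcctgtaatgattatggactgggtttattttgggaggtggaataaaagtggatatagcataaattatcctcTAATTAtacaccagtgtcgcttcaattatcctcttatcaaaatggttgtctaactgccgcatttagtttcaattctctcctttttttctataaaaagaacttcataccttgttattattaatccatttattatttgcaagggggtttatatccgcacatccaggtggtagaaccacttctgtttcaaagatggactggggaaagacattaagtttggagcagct
Dlx6as2: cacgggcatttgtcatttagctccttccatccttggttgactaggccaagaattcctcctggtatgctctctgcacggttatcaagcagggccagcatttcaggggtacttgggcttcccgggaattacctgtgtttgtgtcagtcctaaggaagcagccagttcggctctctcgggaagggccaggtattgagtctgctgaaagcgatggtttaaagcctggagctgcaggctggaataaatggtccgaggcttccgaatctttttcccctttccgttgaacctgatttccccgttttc
Hoxa13: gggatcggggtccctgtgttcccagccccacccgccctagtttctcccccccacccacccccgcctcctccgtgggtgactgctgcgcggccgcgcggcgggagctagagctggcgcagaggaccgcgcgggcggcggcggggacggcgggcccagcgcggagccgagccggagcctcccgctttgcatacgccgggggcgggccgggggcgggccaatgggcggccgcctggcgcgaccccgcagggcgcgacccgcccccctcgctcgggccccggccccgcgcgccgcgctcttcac
The Dlx6as1 promoters held 2 and 1 copies of TAATTA and were poor in G and C (35.7% and 35.3%). Those of Dlx2, Dlx6as2 and Hoxa13 held 0 copies, with a GC content of 66.3%, 51.7% and 81.0%. The motif was found in 5.29% of all 32851 promoters of the RefSeq table, in 4 of the 57 member promoters (7.02%), in 2 of the 8 telencephalic subpallial ones, both of Dlx6as1, in 2 of the 6 pallial ones and in 0 of the 12 Hox ones. Member promoters had a median of 16 CG dinucleotides, against 7 over all promoters.

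Genes next to the Dlx loci were also mostly higher on the right. Beside Dlx1 and Dlx2, the noncoding gene Gm17250 was 1.10-fold higher on the right (p = 0.0886), the integrin gene Itga6 1.05-fold (p = 0.154), and the rows of the histone acetyltransferase Hat1 had log2 folds of -0.04 and 0.01 (p = 0.295 and 0.934) in the authors' deposited table. Beside Dlx5 and Dlx6, Shfm1, a proteasome subunit gene, was 1.03-fold higher on the right (p = 0.559), the mitochondrial carrier Slc25a13 1.13-fold (p = 0.0716) and the noncoding gene Gm19272 1.02-fold (p = 0.673) in the authors' deposited table. The next measured gene there is Tac1, the tachykinin precursor made by striatal and some cortical GABAergic neurons, at 1.13-fold higher on the right (p = 0.0146) in the authors' deposited table.

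Markers of cells and regions known to use Dlx genes lay mostly on the same side. Of the GABAergic interneuron list 12 rows of 11 genes were measured, out of 17 genes listed, and 10 rows were higher on the right, at a median log2 fold of -0.08 in the authors' deposited table. The vesicular GABA transporter Slc32a1 was more abundant on the right by 1.10-fold and 1.15-fold in its 2 rows (p = 0.0322 and 0.0755), Sst, the somatostatin gene, 1.06-fold (p = 0.0571), and Gad1, a GABA synthesis enzyme, 1.06-fold (p = 0.162) in the authors' deposited table. Vip, a marker of interneurons from the caudal eminence, was 1.07-fold higher on the left (p = 0.346) in the authors' deposited table. All 7 measured genes of the striatal projection neuron list, out of 11 listed, were higher on the right per the authors' deposited table, with a median of -0.18 and the adenosine receptor Adora2a at 1.98-fold (p = 0.000855). Their part in the Dlx values was not tested, and in bulk tissue more cells of a type and more RNA per cell cannot be told apart.

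**Figure D2:**
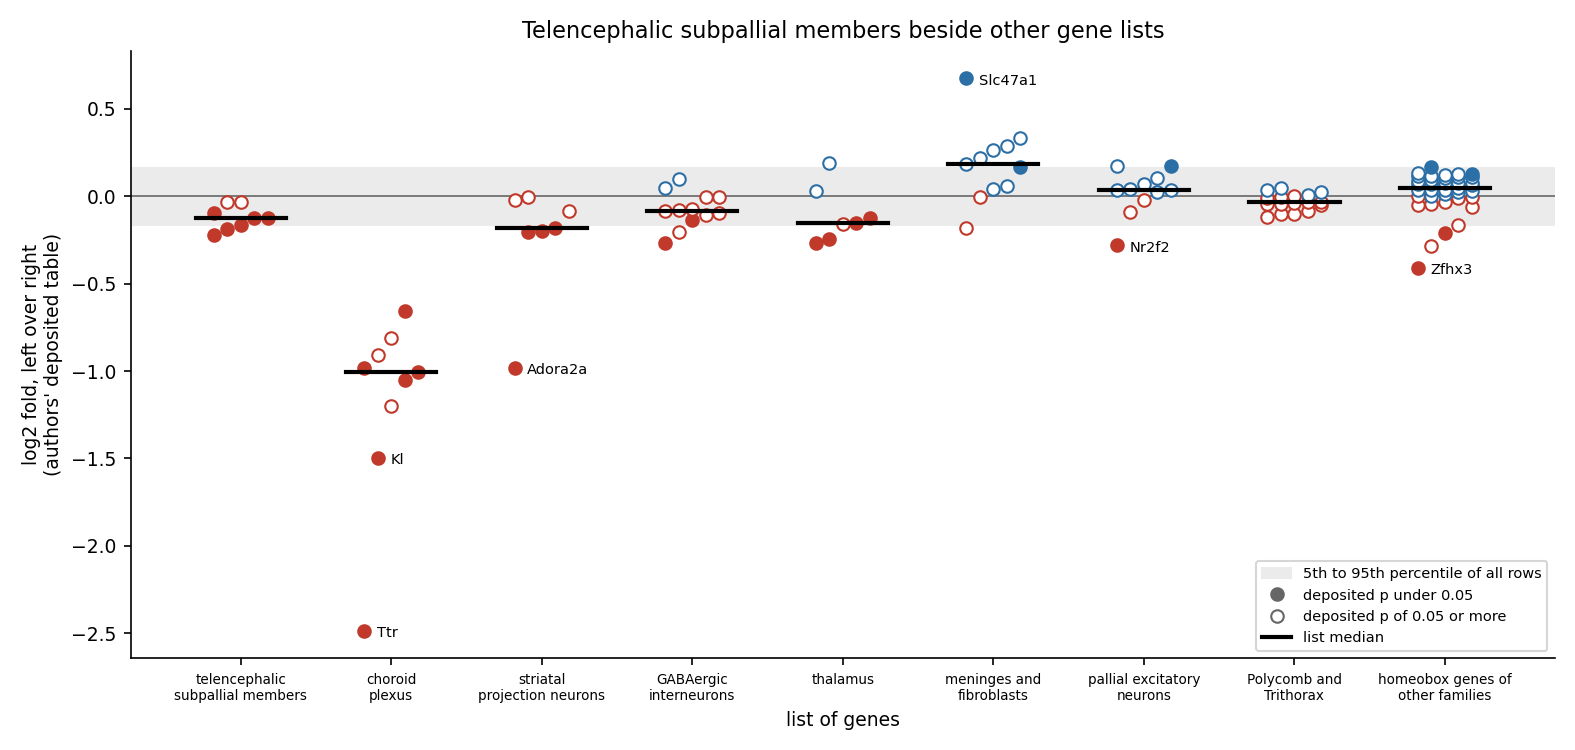
Points are rows of the authors' deposited table for the telencephalic subpallial members and for 8 other gene lists (horizontal axis), placed by log2 fold, left over right (vertical axis); blue is higher on the left, red on the right, filled points have a deposited p under 0.05, bars are medians and the grey band is the 5th to 95th percentile of all rows. The subpallial median of -0.13 lies between those of the striatal list (-0.18) and the interneuron list (-0.08), and the choroid plexus list lies far lower at -1.01.

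The pallial genes, those closest to the identity of the EC itself, had folds of at most 1.13. None of their 8 rows had a p under 0.05 in the authors' deposited table, against 8.13% of all rows, and at that share fewer than 1 of 8 would have one. Pou3f1, a POU factor of cortical projection neurons and of myelinating Schwann cells, had the largest difference, 1.13-fold higher on the left (p = 0.0885), in the authors' deposited table. Lhx2, which gives cortical progenitors their identity, was 1.05-fold higher on the left (p = 0.191) in the authors' deposited table. Emx2, which is graded across the cortex and needed for its caudal areas and the hippocampus, was 1.02-fold higher on the right (p = 0.562), and its opposite-strand transcript Emx2os 1.05-fold (p = 0.402), in the authors' deposited table. Otx1, a gene of deep-layer neurons, had a log2 fold of 0.01 (p = 0.942), Pou3f2 was 1.02-fold higher on the left (p = 0.646), and Pou3f3 had a log2 fold of -0.00 (p = 0.961) in the authors' deposited table. The opposite-strand transcript Pax6os1 had a log2 fold of -0.01 (p = 0.943) in the authors' deposited table. Emx1 and Pax6 were not analysed here. Without the POU genes the pallial median log2 fold was -0.01 over 5 rows of the authors' deposited table.

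Other genes of pallial excitatory neurons lay more often on the left. Of 14 listed genes 11 were measured, 8 of them (72.7%, against 54.1% of all rows) higher on the left, at a median log2 fold of 0.04 in the authors' deposited table. Tbr1, a factor of early-born projection neurons, was 1.13-fold higher on the left (p = 0.0346), Reln, made by EC stellate cells, 1.13-fold (p = 0.1), and Nr2f2, a factor of caudal cortex and of caudal eminence interneurons, 1.22-fold higher on the right (p = 0.00835) in the authors' deposited table. Whether the pallial and subpallial genes differ from each other in their side was not tested, because the members were taken from a table without values per sample.

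The Hox genes, which pattern hindbrain and trunk, were mostly a little higher on the left. Of 20 rows 17 (85.0%) were higher on the left per the authors' deposited table, against 54.1% of all rows, with log2 folds from -0.04 to 0.17. A deposited p under 0.05 was reached by 1 row of the 20 in the authors' deposited table, against 8.13% of all rows. That row was Hoxa13 (Entrez gene 15398), which acts in the digits and the urogenital tract, at 1.11-fold higher on the left (p = 0.00609, adjusted over all rows p = 0.567), in the authors' deposited table. Hoxd3, a gene of the neck vertebrae, was 1.13-fold higher on the left (p = 0.0542), and Hoxb8, which is also active in microglial progenitors and the spinal cord, 1.11-fold (p = 0.0531), in the authors' deposited table. At least as far to the left as Hoxa13 were 5.55% of all rows of the authors' deposited table, and 4.14% were as far as Hoxd3.

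By cluster, the lean was least in cluster A. The 6 rows of cluster B were all higher on the left per the authors' deposited table, between 0.07 and 0.15 on the log2 scale, with Hoxb9 at 1.10-fold (p = 0.132) and Hoxb1, a gene of hindbrain rhombomere identity, at 1.08-fold (p = 0.185). The 4 rows of cluster C were all higher on the left as well, from 0.04 for Hoxc10 to 0.10 for Hoxc4 on the log2 scale (p = 0.66 and 0.16), in the authors' deposited table. In cluster D 3 of 4 rows were higher on the left per the authors' deposited table, the exception being Hoxd13 at 1.02-fold on the right (p = 0.775). In cluster A 4 of 6 rows were on the left per the authors' deposited table, and the median log2 fold was 0.01. There Hoxa5 and Hoxa7 had log2 folds of -0.00 and 0.00 (p = 0.959 and 1.0) in the authors' deposited table, and Hoxa7 counts as left by its sign alone.

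Medians lay above 0 at each position along the clusters. The median log2 fold was 0.09 for the 11 rows of paralog groups 1 to 5, which are used most anteriorly, 0.10 for the 4 rows of groups 6 to 9 and 0.04 for the 5 rows of groups 10 to 13 in the authors' deposited table. The number of rows higher on the left was 9 of 11, 4 of 4 and 4 of 5 in that order of the authors' deposited table.

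The Hox clusters also hold microRNA genes, which offer a readout the symbol rule did not use. The mature sequences below are from RefSeq (build GRCm38.p6, plus strand), with the seed (bases 2 to 8) in capitals. miR-10a-5p (chr11:96317186-96317208) and miR-10b-5p (chr2:74726074-74726096) share the seed ACCCUGU, miR-196a-5p is encoded at chr11:96265187-96265208 and chr15:102973365-102973386, and miR-615-3p at chr15:103014969-103014990.
miR-10a-5p: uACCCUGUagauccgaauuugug
miR-10b-5p: uACCCUGUagaaccgaauuugug
miR-196a-5p: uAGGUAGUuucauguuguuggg
miR-615-3p: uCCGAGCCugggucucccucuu
These microRNA genes did not lie on one side. Mir615 of cluster C was 1.17-fold higher on the left (p = 0.00753) in the authors' deposited table. Mir196a-2 of the same cluster was 1.11-fold higher on the left (p = 0.582), and Mir196a-1 of cluster B, which gives the same mature sequence, 1.02-fold (p = 0.834), in the authors' deposited table. Mir10b of cluster D was 1.14-fold higher on the right (p = 0.0827) and Mir10a of cluster B 1.01-fold (p = 0.739) in the authors' deposited table. The rows carry the symbol of the microRNA gene, so it is not known whether they measure a mature microRNA or a longer transcript, nor which arm.

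Including 3 noncoding genes, the clusters held 8 measured transcripts that are no members, 5 of them higher on the left per the authors' deposited table. 1700109F18Rik (Hoxd3os1 in RefSeq) was 1.08-fold higher on the left (p = 0.146), 2700086A05Rik (Hoxaas3 in RefSeq) 1.04-fold (p = 0.415), and Gm11538, at the end of cluster B, 1.07-fold higher on the right (p = 0.3) in the authors' deposited table.

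**Figure D3:**
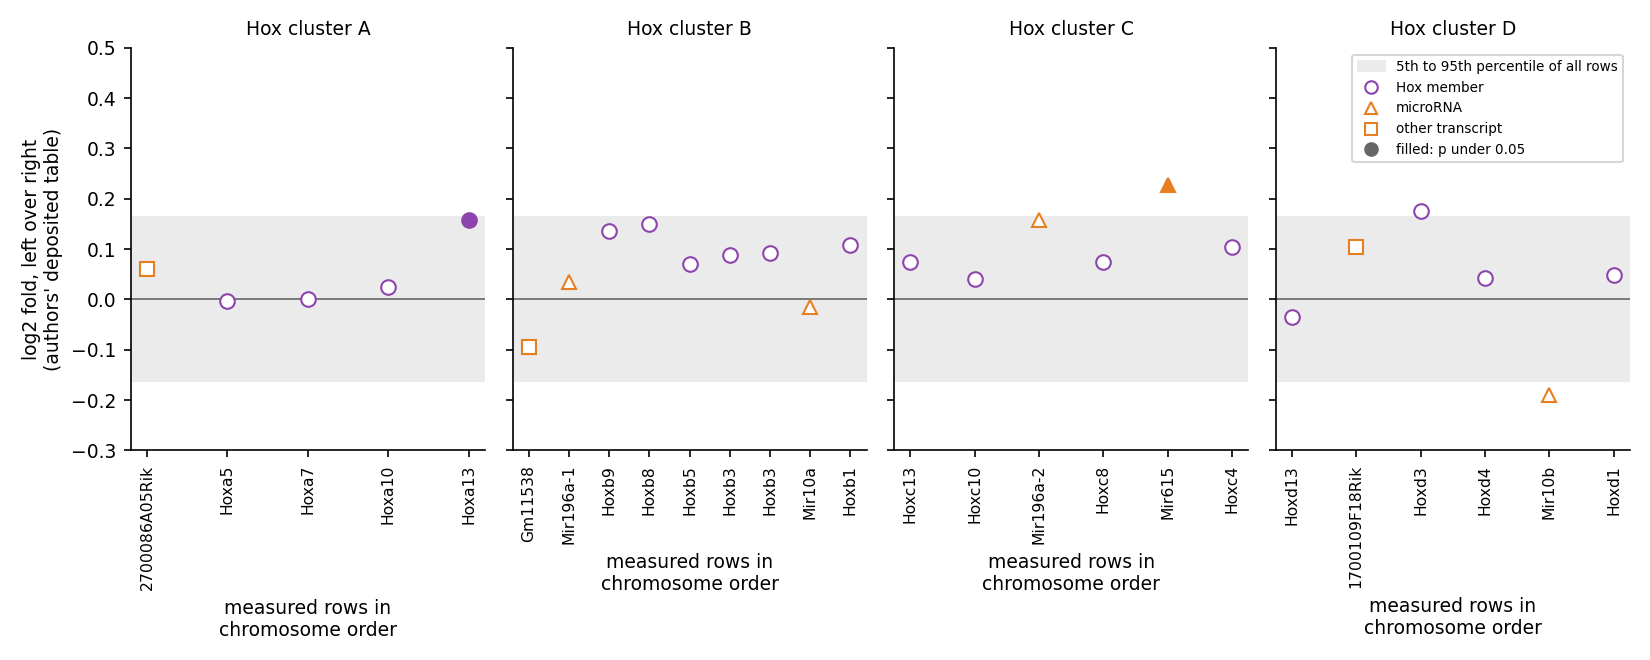
Measured rows of each Hox cluster are drawn in chromosome order (horizontal axes, 1 panel per cluster) against the log2 fold, left over right, of the authors' deposited table (vertical axis); purple circles are Hox members, orange triangles microRNA genes, orange squares other transcripts, filled symbols have a deposited p under 0.05, and the grey band is the 5th to 95th percentile of all rows. Of the 18 Hox rows drawn 16 lie at or above 0, Hoxd3 reaches 0.17, and the microRNA genes spread from -0.19 (Mir10b) to 0.23 (Mir615).

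Families of genes known from other tissues also leaned to the left. Olfactory receptor genes, a large family known from the nose, were higher on the left in 540 of 914 rows (59.1%), vomeronasal receptor genes in 195 of 311 (62.7%) and keratin-associated protein genes of hair in 34 of 53 (64.2%) in the authors' deposited table. Over all rows that share was 54.1%. Among rows with a deposited p under 0.05 the olfactory family had 66 left and 21 right, and the keratin-associated family 5 and 2. In the vomeronasal family the right had more of such rows, 15 against 10, per the authors' deposited table. These families were chosen after their values were seen. In the unnamed per-array table, 59.5% of the rows in the second-lowest of 4 equal bins of mean signal were higher on the left, against 52.3% in the lowest, 46.7% in the next and 50.3% in the highest bin. The signal of the Hox rows is not known, so the part of signal level in the Hox lean was not tested.

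Polycomb and Trithorax regulators of Hox genes differed little. Of the Polycomb and Trithorax list 17 rows of 15 genes were measured, out of 19 genes listed, and 13 rows were higher on the right, at a median log2 fold of -0.03 in the authors' deposited table. None had a deposited p under 0.05 in the authors' deposited table, where 8.13% of all rows did. Ezh2, the Polycomb methyltransferase, was 1.09-fold higher on the right (p = 0.087), its partner Eed 1.08-fold (p = 0.0644), and Mll2, a Trithorax-type methyltransferase, 1.07-fold (p = 0.0628) in the authors' deposited table.

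The TALE cofactors included a large difference without a small p. Meis1, a cofactor of Hox proteins, was 1.22-fold higher on the right (p = 0.0899) in the authors' deposited table, and 1.32% of all rows were at least as far to the right. Pbx3, a partner of Meis proteins, was 1.12-fold higher on the right (p = 0.282) and Pbx4 1.09-fold (p = 0.087) in the authors' deposited table. Meis3 was 1.05-fold higher on the left (p = 0.142) in the authors' deposited table. Meis2, which is strong in the striatum, was not analysed here.

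The members with the largest folds were genes of the diencephalon and midbrain group. Lhx9 (Entrez gene 16876), a LIM-homeobox gene of thalamus, pretectum and amygdala, was 1.35-fold higher on the right (p = 0.0247, adjusted over all rows p = 0.585) in the authors' deposited table. Otx2os1 (Entrez gene 606497), the transcript from the strand opposite to Otx2, was 1.35-fold higher on the right (p = 0.0429, adjusted over all rows p = 0.609) in the authors' deposited table. Each was within the outermost 0.416% of all rows to the right per the authors' deposited table. Otx2 itself, which maintains choroid plexus and midbrain identity, was not analysed here.

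Next to Otx2os1 the noncoding gene 4933429O19Rik was 1.27-fold higher on the right (p = 0.0329) in the authors' deposited table. The other neighbours of Otx2os1 had log2 folds of -0.03 (6720456H20Rik), 0.13 (Gm6498), and 0.19 and -0.02 (the rows of Exoc5) in the authors' deposited table. The neighbours of Otx2os1 thus lay on both sides. Next to Lhx9 the kinase gene Nek7 was 1.01-fold higher on the right (p = 0.799) and 2310009B15Rik 1.01-fold (p = 0.867) in the authors' deposited table.

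Markers of neighbouring tissue lay mostly on the same side as Lhx9 and Otx2os1. All 9 measured genes of the choroid plexus list, out of 12 listed, were higher on the right per the authors' deposited table, the median log2 fold being -1.01, and Kl, encoding klotho, was 2.82-fold higher (p = 0.0268). Of the 7 measured genes of the thalamus list, out of 10 listed, 5 were higher on the right per the authors' deposited table, with a median of -0.15. The thalamic factor Tcf7l2 was 1.11-fold higher on the right (p = 0.0121), and the kinase gene Prkcd, of sensory thalamus, 1.18-fold (p = 0.0079), in the authors' deposited table. Ntng1 and Plekhg1 of the thalamus list lay on the left, at log2 folds of 0.19 and 0.03, in the authors' deposited table. Calb2 of that list, with a log2 fold of -0.27 in the authors' deposited table, is in the interneuron list as well. The summed level of these lists per side could not be given, and their part in the values of Lhx9 and Otx2os1 was not tested.

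The other genes of that group lay mostly on the left with small folds. Of its 16 rows 11 (68.8%, against 54.1% of all rows) were higher on the left, and the median log2 fold was 0.04, in the authors' deposited table. The Irx genes, which mark caudal diencephalon and midbrain, were on the left in 4 of 5 rows of the authors' deposited table, led by Irx3 at 1.07-fold (p = 0.158), with Irx4 the exception at 1.02-fold on the right (p = 0.517). Pou4f2, a factor of retinal ganglion cells and sensory neurons, was 1.07-fold higher on the left (p = 0.0807), and Pax3, of dorsal neural tube and neural crest, 1.05-fold (p = 0.156), in the authors' deposited table. Nkx6-2, a gene of oligodendrocytes, was 1.06-fold higher on the right (p = 0.168) and Lhx5, a gene of the cortical hem and hypothalamus, 1.05-fold (p = 0.461) in the authors' deposited table.

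POU genes outside the pallial group leaned to the right, with 5 of 8 rows and a median log2 fold of -0.07 in the authors' deposited table. Over all rows 45.9% lay on that side, and 2 of the 5 rows belong to a single gene, Pou2f1. Pou2af1, Pou2f2 and Pou2f3 lay on the left, at 1.02-fold, 1.02-fold and 1.01-fold, per the authors' deposited table. Pou5f2 (Entrez gene 75507), a gene known from testis, was 1.14-fold higher on the right (p = 0.00542, adjusted over all rows p = 0.567) in the authors' deposited table. In its 2 rows of the authors' deposited table the broadly expressed Pou2f1 was more abundant on the right by 1.10-fold and 1.06-fold (p = 0.0993 and 0.179).

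The remaining Lhx and Pax genes, and those of the Drosophila sine oculis family, lay mostly on the left. They had 4 of 4 and 3 of 4 rows there in the authors' deposited table, against 54.1% of all rows. Six2, of kidney and mesenchymal progenitors, was 1.17-fold higher on the left (p = 0.126) and had the largest fold of any member on that side in the authors' deposited table. Pax4, a pancreatic islet gene, was 1.11-fold higher on the left (p = 0.0692) in the authors' deposited table. Lhx3 and Lhx4, pituitary and motor neuron genes, were both 1.07-fold higher on the left (p = 0.237 and 0.19) in the authors' deposited table. Markers of meninges and fibroblasts lay on the same side, with 9 of 11 measured genes higher on the left, out of 12 listed, a median of 0.18 and the transporter Slc47a1 at 1.59-fold (p = 0.0308) in the authors' deposited table. Whether they bear on Six2 was not tested.

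**Figure D4:**
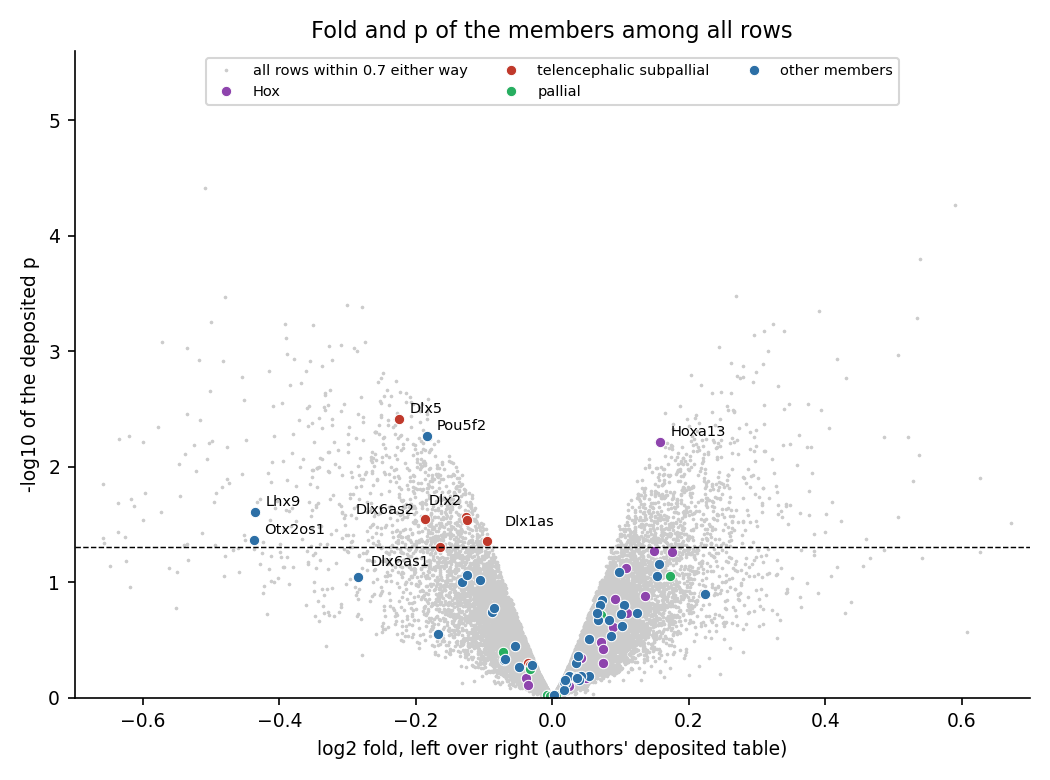
Each grey dot is a row of the authors' deposited table within 0.7 on the log2 scale, with the log2 fold, left over right, on the horizontal axis and -log10 of the deposited p on the vertical axis; coloured points are members and the dashed line marks a p of 0.05. Of the 10 member rows above the line 9 lie on the right side of the brain (negative folds) and Hoxa13 on the left.

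Homeobox genes of other families lay mostly on the left. Of a list of 64 such genes 36 were measured in 37 rows, at a median log2 fold of 0.05 in the authors' deposited table. Of these rows 26 (70.3%, against 54.1% of all rows) were higher on the left. The rows with a deposited p under 0.05 were 2 on each side in the authors' deposited table. Zfhx3, a large zinc finger and homeodomain factor, was 1.33-fold higher on the right (p = 0.00299) and Tshz1, a teashirt factor of subpallial interneurons and olfactory bulb, 1.16-fold (p = 0.0225), whereas Tshz3, a factor of deep-layer cortical neurons, was 1.12-fold higher on the left (p = 0.0348) and Uncx, a gene of somites and midbrain, 1.09-fold (p = 0.0242), in the authors' deposited table.

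The size of the disagreement between rows of a gene gives a scale for these folds. Over 898 genes with 2 rows of different values, the rows of a gene differed by a median of 0.07 on the log2 scale and lay on opposite sides for 43.0% of genes in the authors' deposited table. Among members with 2 rows, Dlx1as, Pou2f1 and Hoxb3 kept to 1 side and Nkx2-2 did not. The within-gene SD of a row was 0.09 on the log2 scale, and 46 of the 79 member rows had a log2 fold no larger than that in either direction. The Hox median of 0.08 was also below it, but that SD is for a single row, not for a median over 20 rows. It measures the spread between rows of a gene, not between mice.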

How the data were processed

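RNA from left and right EC was hybridised to 1 array per sample, 3 per side, per the labels. The authors deposited a table of signed folds (treated as a score, since a negative value is minus the reciprocal ratio) with p-values, left versus right. The series text names Ingenuity iReport, and no source used here gives the test. Signed folds were turned into log2 folds, and the deposited p-values were adjusted by Benjamini-Hochberg over all 20414 rows at 0.05. The authors also deposited log2 signals for 41345 unnamed rows, with medians of 7.24 to 7.28 per array and pairwise correlations of 0.9946 to 0.9965. Their scale was inferred from the values, and no source used here gives their normalization. These were tested with limma 3.58.1 in R 4.3.3 (lmFit, eBayes, two-sided), tested on simulated data. The planned limma values per member needed a table pairing rows with genes and were not run. The number of arrays limits the precision.

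All 74 member genes matched GRCm38.p6 RefSeq by Entrez identifier. Named genes were members with a p under 0.05, the 5 smallest p-values per group, the 3 largest folds per side, a set of forebrain genes, up to 3 genes per marker list, and paralogs and cluster neighbours. Other genes of the lists, among them Gad1, Sst, Vip, Kl, Eed and Mll2, and the neighbours of Lhx9 and Otx2os1, were named after their values were seen. Some genes that the rule names are not reported here or drawn by name. Members, groups and lists were chosen with earlier results of these data known. Same-numbered left and right arrays deviated from their side means with correlations of 0.018, -0.092 and 0.046, so the numbers were not taken as pairs.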

Additional observations from a re-analysis of the deposited data

How the results depend on the processing

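In the authors' deposited table the count of 10 member rows with a p under 0.05 became 3 of the same 79 rows at a p under 0.01. Without antisense and opposite-strand transcripts it was 5 of 72 rows, because the rows of Dlx1as, Dlx6as1, Dlx6as2 and Otx2os1 dropped out. With the rows of a gene averaged, the count was 9 of 74 genes. Counted by side, an alternative added after seeing the data, the 10 rows were 1 on the left and 9 on the right. The number of members higher on the left was 46 to 49 in all alternatives run, and the subpallial median log2 fold of -0.04 became -0.13 over telencephalic members alone and -0.05 after centring on all rows. The pallial and Hox medians moved by less than 0.01 in the alternatives run. The unadjusted limma count of 3023 of 41345 unnamed rows (7.31%) became 1808 when the fit was limited to rows of above-median signal, 2790 with the replicate number as a block, and 2104 to 3829 when 1 array was left out. Limma called 0 rows after adjustment in each of these and with the other normalizations, variance models and weights run, against the unadjusted counts just given. No array could be left out and no pairing fitted for named genes, since their rows have no values per sample. Signal over background could not be given for any member.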
